A study of Mus musculus with 6 samples.

Results

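The sarcomere of the heart is bounded by Z-discs and carries an M-band at its centre, and 10 genes that build or tie these structures together were examined in cardiomyocytes (CMs) from hearts lacking *Cpt1b* and from control hearts. The genes were picked by name for their place in the sarcomere, with earlier results of these data known and no expression threshold: *Ttn* and *Tcap* (titin and its Z-disc cap), *Actn2*, *Myoz2*, *Ldb3* and *Nebl* (Z-disc), *Des* and *Cryab* (intermediate filament and its chaperone), *Myom1* (M-band) and *Mybpc3* (thick filament). They are 10 of 16448 genes in the deposited table. RNA-seq was carried out on isolated adult CMs of 3 CtrlCre and 3 Cpt1bcKO mice on the C57BL/6 background, aged 8 to 12 weeks. Cpt1bcKO mice carried a floxed *Cpt1b* gene (*Cpt1b* fl/fl) and the *αMHC-Cre* transgene, in which the *Myh6* promoter drives Cre recombinase in CMs. CtrlCre mice were littermates with the same transgene and an intact *Cpt1b* gene (*Cpt1b* +/+), so Cre was present in both groups and the comparison addressed the loss of *Cpt1b*. The transgene needs no inducer and is active in CMs only, and atria were removed before the ventricular CMs were separated. CPT1B is the mitochondrial enzyme that admits long-chain fatty acids to oxidation in muscle.

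In the sarcomere, actin filaments are anchored in the Z-disc by α-actinin, and myosin filaments are linked to their neighbours at the M-band by cross-linking proteins such as myomesin. Titin runs from the Z-disc to the M-band as a molecular spring, and its end in the Z-disc is held by telethonin, the product of *Tcap*. Desmin filaments surround the Z-discs and connect adjacent myofibrils, and αB-crystallin, encoded by *Cryab*, protects desmin and titin from aggregation. Mutations in most of these genes are known causes of inherited cardiomyopathy.

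Promoters from RefSeq (GRCm38.p6, 250 bases before to 50 after an annotated start) were found for 8 of the 10 genes (all but *Tcap* and *Cryab*), with 12 promoters in all. The pattern CTANNNNTAG is broader than the sites bound by MEF2 factors of muscle, since it allows any base in the middle. It was searched on both strands and was present in 5 of the 8 genes (*Des*, *Ldb3*, *Mybpc3*, *Myoz2* and *Ttn*), compared with 4.23% of 27025 genes. The middle bases include a C in *Des* (CTACAAATAG) and *Ldb3* (CTATTCTTAG) and are only A and T in *Mybpc3*, *Myoz2* and *Ttn*. The CArG box, bound by serum response factor, was present in 3 of 8 (*Ldb3*, *Myom1* and *Nebl*), compared with 1.81% of genes. The sequence CANNTG, an E-box, was found in 7 of 8 and in 75.0% of genes, AGATAA in 2 of 8 and in 12.7%, and TATAAA in 0 of 8 and in 15.7%. No match of CTANNNNTAG shared bases with a CArG box. The 4 sequences that follow are the 250 bases before the start, written 5′ to 3′ on the strand of the gene with CTANNNNTAG and CArG matches in capitals. They are shown because they hold the same pattern, whereas *Mybpc3* RNA was above all controls in Cpt1bcKO CMs and *Ldb3* RNA was below all controls. The unadjusted *P* values of these genes were 0.0747 and 0.217 (limma). The *Ldb3* groups overlapped with scaling to the sum without mitochondrial-encoded and rRNA genes. A match describes the letters only, not binding.
Ttn, chr2:76982548-76982797, minus strand: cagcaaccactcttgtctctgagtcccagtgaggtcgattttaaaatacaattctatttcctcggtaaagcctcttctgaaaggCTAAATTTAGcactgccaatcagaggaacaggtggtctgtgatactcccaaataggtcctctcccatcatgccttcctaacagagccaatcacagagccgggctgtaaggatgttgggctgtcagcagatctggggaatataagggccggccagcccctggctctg
Mybpc3, chr2:91117894-91118143, plus strand: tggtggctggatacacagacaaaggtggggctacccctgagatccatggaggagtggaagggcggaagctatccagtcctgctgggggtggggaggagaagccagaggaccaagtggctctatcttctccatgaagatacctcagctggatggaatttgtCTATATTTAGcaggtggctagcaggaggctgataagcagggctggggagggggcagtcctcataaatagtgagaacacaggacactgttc
Myoz2, chr3:123034988-123035237, minus strand: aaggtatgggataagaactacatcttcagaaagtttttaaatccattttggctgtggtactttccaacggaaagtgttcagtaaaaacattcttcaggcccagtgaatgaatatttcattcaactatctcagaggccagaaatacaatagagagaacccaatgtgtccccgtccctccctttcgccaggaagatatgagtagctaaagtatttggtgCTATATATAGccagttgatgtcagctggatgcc
Ldb3, chr14:34588608-34588857, minus strand: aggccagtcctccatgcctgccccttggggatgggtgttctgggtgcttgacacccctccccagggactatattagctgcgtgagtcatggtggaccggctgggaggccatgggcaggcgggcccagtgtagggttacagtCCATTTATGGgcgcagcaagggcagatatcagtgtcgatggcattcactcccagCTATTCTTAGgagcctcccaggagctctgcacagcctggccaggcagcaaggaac
In *Ttn* the match CTAAATTTAG ends 157 bases before the start, in *Mybpc3* CTATATTTAG ends 81 bases before it, and in *Myoz2* CTATATATAG ends 24 bases before it. In *Ldb3*, which has 2 annotated starts near each other, the CArG box CCATTTATGG lies upstream of the match CTATTCTTAG.

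Values are the authors' gene counts after division by sample size factors, called normalized counts here. The targeted gene *Cpt1b* had 1861, 893 and 1443 normalized counts in CtrlCre samples 1, 2 and 3 and 211, 353 and 285 in Cpt1bcKO samples 1, 2 and 3. The sums per sample lay between 13393411 and 31722217, of which the mitochondrial rRNA gene *mt-Rnr2* took 63.2% to 64.6% in CtrlCre and 61.8%, 72.6% and 80.8% in Cpt1bcKO samples 1, 2 and 3, so that Cpt1bcKO samples 2 and 3 stood apart. Leaving out mitochondrial-encoded and rRNA genes, each sample held 3146414 to 3551692. All 10 CM markers were detected, 9 of them (among them *Myh6*, *Tnnt2* and *Ryr2*) at 3492 or more in every sample and *Nkx2-5* at 30 to 57, with summed values of 316131 to 377020 in CtrlCre and 228353 to 269871 in Cpt1bcKO, and 3 of them were lower at an unadjusted *P* value below 0.05. All 8 fibroblast markers were listed, none of them at 0, with summed values of 498 to 785 in CtrlCre and 1108 to 1338 in Cpt1bcKO. All 7 fibroblast markers tested were higher at an unadjusted *P* value below 0.05. Endothelial markers summed to 1195 to 2485 and 2182 to 2502, and smooth muscle and pericyte markers to 526 to 1784 and 989 to 1439, with *Tagln* and *Cnn1* at 0 in some samples. Macrophage markers summed to 49 to 86 and 76 to 87. The 3 listed markers of atrial CMs summed to 146 to 265 and 477 to 720, but without *Nppa*, which is also a stress gene of ventricular CMs, to 18 to 121 and 37 to 93, with overlap. The 2 listed erythroid markers summed to 3 to 20 and 1 to 18, with *Hba-a1* and *Alas2* at 0 in some samples. The part of the CM and fibroblast markers and *Nppa* in the results that follow was not tested. In these bulk samples, fewer CMs and less RNA per CM cannot be told apart.

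Of the 10 genes, only *Tcap* changed at an adjusted *P* value below 0.05, and it fell. The 10 genes were all tested with limma among 11364 genes that reached 10 normalized counts in 3 or more samples, and this call was made for 1.57% of the genes tested, and for 0.906% in the lower direction. *Tcap* and *Nebl* were lower at an unadjusted *P* value below 0.05, a result reached by 7.22% of all genes tested, and none of the 10 was higher, compared with 6.66%. All 10 genes had a mean above 1000, and among the 465 genes at or above that mean 21.1% were lower and 6.24% higher at this threshold, so 2 lower of 10 is near the share of equally abundant genes. The count of 2 lower genes became 1 without CtrlCre sample 1, without CtrlCre sample 2 or without Cpt1bcKO sample 2, when 5.06%, 6.00% and 4.88% of all genes tested were lower, and 4 without Cpt1bcKO sample 1 (10.9% of all genes tested), in which case 1 gene was also higher (8.95%). It was 1 lower and 1 higher with scaling to the sum without mitochondrial-encoded and rRNA genes, compared with 4.44% and 10.7% of all genes tested in that fit. With sex as covariate, which sets sample 1 of each group apart from the other samples, it was 4 lower and 1 higher, compared with 11.3% and 9.57%. In 4 genes (*Tcap*, *Nebl*, *Ldb3* and *Myom1*) every Cpt1bcKO value was below every CtrlCre value, and such a separation occurred in 9.6% of all genes tested. *Mybpc3* was the single gene with every Cpt1bcKO value above every CtrlCre value, which occurred in 9.13% of all genes tested. The groups overlapped in the other 5. The share of separated genes among the 465 genes with a mean of at least 1000 was not determined. When the values were rescaled to the sum without mitochondrial-encoded and rRNA genes, *Ldb3* and *Myom1* overlapped as well, and 3 of the 10 genes remained separated. The median log2 fold change was −0.26 over the 10 genes and −0.24 without *Tcap*, compared with −0.0013 over all genes tested and −0.17 over the 465 genes with a mean of at least 1000. The median of the 10 genes was −0.16 without CtrlCre sample 1 or without Cpt1bcKO sample 1. It was −0.15 with scaling to the sum without mitochondrial-encoded and rRNA genes, when the median of all genes was 0.11.

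**Figure D1:**
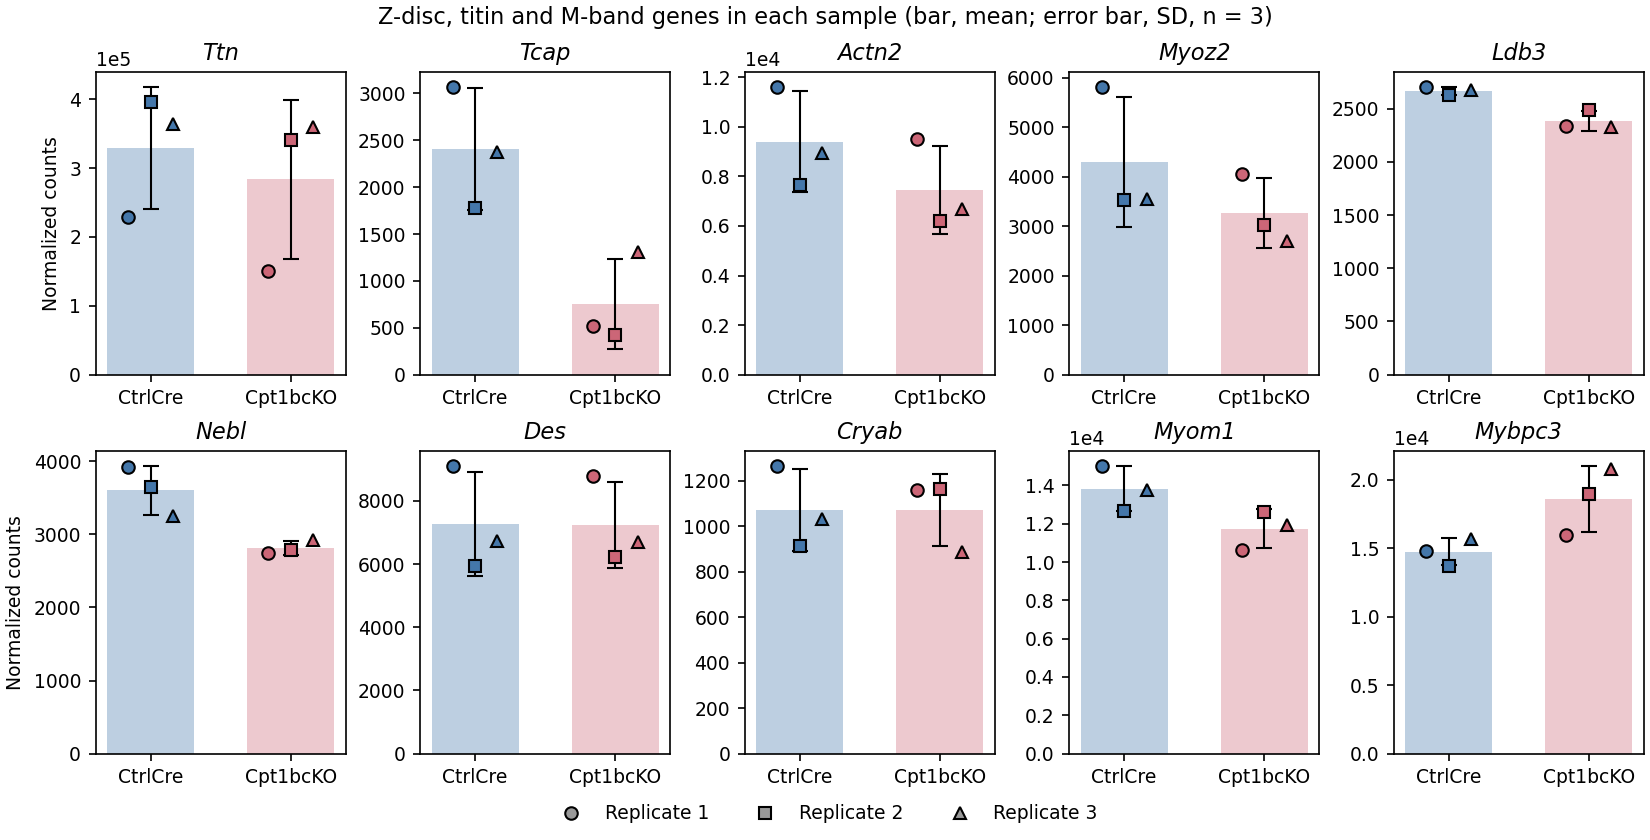
Normalized counts of the 10 genes in each sample (points, with the shape giving the replicate number), with the mean (bar) and SD (error bar) of 3 CtrlCre and 3 Cpt1bcKO samples on an axis that starts at 0 for each gene. The Cpt1bcKO points of Tcap lie between 428 and 1307 and those of CtrlCre between 1777 and 3073, whereas the points of Ttn, Actn2, Myoz2, Des and Cryab overlap.

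*Tcap* (ENSMUSG00000007877, plus strand, chr11:98383811-98384953, GRCm38), which encodes the small protein that caps pairs of titin molecules in the Z-disc, had 3073, 1777 and 2373 normalized counts in CtrlCre samples 1, 2 and 3 and 520, 428 and 1307 in Cpt1bcKO samples 1, 2 and 3. The highest Cpt1bcKO value was below the lowest CtrlCre value, and Cpt1bcKO sample 3 lay nearer to the controls than the other two. The log2 fold change was −1.82 (standard error 0.361, 95% interval −2.62 to −1.02, limma, adjusted *P* = 0.0354), which corresponds to an RNA level 71.8% lower. By unadjusted *P* value, *Tcap* ranked 144 among all genes tested, and 0.405% of them had a lower fold change. The direction was the same in all 20 alternative fits and the adjusted *P* value was below 0.05 in 14 of these. The call was lost without CtrlCre sample 1 (adjusted *P* = 0.125), CtrlCre sample 2 (0.0739), CtrlCre sample 3 (0.127) or Cpt1bcKO sample 2 (0.184, log2 fold change −1.51), with a single prior variance for all genes (0.156) and with a robust prior (0.0559). Without Cpt1bcKO sample 3, in which *mt-Rnr2* took the largest share, the log2 fold change was −2.31, and with scaling to the sum without mitochondrial-encoded and rRNA genes it was −1.71 (adjusted *P* = 0.0406, limma).

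*Tcap* is a short gene, with 0.948 kb of annotated exon, and its nearest tested neighbours lie within a few kilobases. *Stard3* ends 2712 bases before *Tcap* and had 63, 46 and 46 normalized counts in CtrlCre and 25, 33 and 31 in Cpt1bcKO (log2 fold change −0.77, standard error 0.259, adjusted *P* = 0.205, limma). *Pgap3* begins 3724 bases after it and had 33, 17 and 38 compared with 15, 11 and 14 (log2 fold change −1.02, standard error 0.383, adjusted *P* = 0.265, limma). In both neighbours every Cpt1bcKO value was below every CtrlCre value, at low levels, and neither passed the adjusted test. Lower neighbours were not particular to *Tcap*. Of the 20 nearest tested neighbours of the 10 genes, 9 were lower and 1 higher at an unadjusted *P* value below 0.05 (7.22% and 6.66% among all genes tested), and *Mtr*, beside *Actn2*, was called (log2 fold change −1.72, adjusted *P* = 0.00874, limma). Neighbours were examined after the values had been seen.

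*Ttn* (ENSMUSG00000051747, minus strand, chr2:76703980-76982547) encodes titin, the largest protein of the sarcomere. It had 229054, 395949 and 364082 normalized counts in CtrlCre and 151007, 340512 and 360030 in Cpt1bcKO, which made it the 4th most abundant gene in the table. These reads were 4.80% to 11.4% of each sample without mitochondrial-encoded and rRNA genes. Sample 1 was the lowest in each group, and the groups overlapped. The log2 fold change of −0.28 was smaller than its standard error of 0.407 (95% interval −1.18 to 0.62, adjusted *P* = 0.807, limma), and it became 0.13 without Cpt1bcKO sample 1. A difference in *Ttn* was not detectable with this spread.

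*Tcap* RNA was also expressed relative to RNA of its structural partners within each sample, a ratio that does not depend on the scaling of samples. For each 100 counts of *Actn2*, there were 26.4, 23.3 and 26.5 counts of *Tcap* in CtrlCre samples 1, 2 and 3 and 5.48, 6.89 and 19.5 in Cpt1bcKO samples 1, 2 and 3. The 3 control ratios were close to each other although the *Tcap* values behind them were not, and Cpt1bcKO sample 3 was again nearest to the controls. Relative to 100 counts of *Des*, the values were 33.7, 29.8 and 35.2 in CtrlCre and 5.91, 6.88 and 19.5 in Cpt1bcKO. With *Mybpc3* as reference, they were 20.8, 13.0 and 15.1 in CtrlCre and 3.26, 2.26 and 6.29 in Cpt1bcKO. With *Ttn* as reference, they were 1.34, 0.449 and 0.652 in CtrlCre and 0.344, 0.126 and 0.363 in Cpt1bcKO. The groups did not overlap in any of these 4 ratios.

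**Figure D2:**
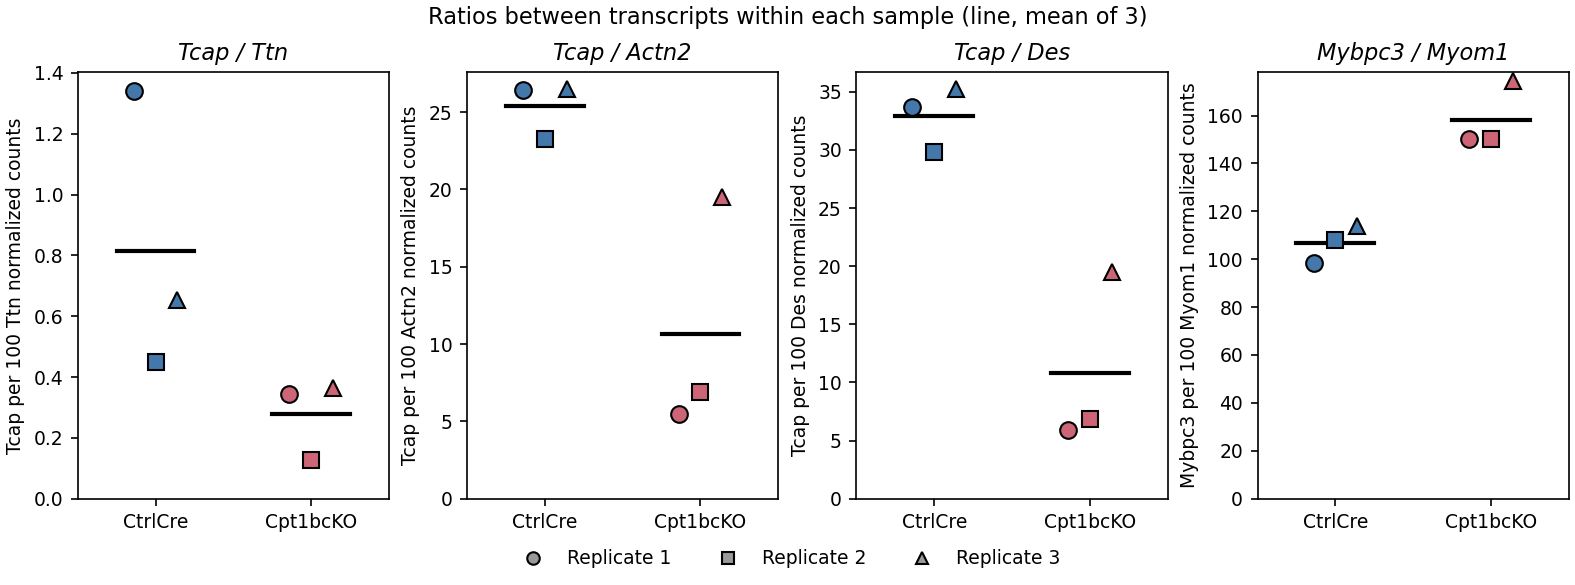
Ratios of normalized counts within each sample (points, with the shape giving the replicate number) and the mean of 3 samples (line), for Tcap per 100 counts of Ttn, Actn2 and Des and for Mybpc3 per 100 counts of Myom1. The CtrlCre ratios of Tcap to Actn2 lie between 23.3 and 26.5 and those of Cpt1bcKO between 5.48 and 19.5, and the Mybpc3 to Myom1 ratio is higher in each Cpt1bcKO sample than in each CtrlCre sample.

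The 4 genes of the Z-disc lattice all had negative fold changes, of −0.16 to −0.38, and none passed the adjusted test. *Actn2* (ENSMUSG00000052374, minus strand, chr13:12269426-12340760), which encodes the cross-linker of actin filaments in the Z-disc, had 11623, 7641 and 8944 normalized counts in CtrlCre and 9495, 6209 and 6689 in Cpt1bcKO. The highest Cpt1bcKO value, that of sample 1, was above 2 of the 3 CtrlCre values. Its log2 fold change was −0.34 (standard error 0.209, 95% interval −0.80 to 0.13, adjusted *P* = 0.518, limma). *Myoz2* (ENSMUSG00000028116, minus strand, chr3:123006206-123035015) encodes calsarcin-1, which binds α-actinin and calcineurin. It had 5823, 3535 and 3558 normalized counts in CtrlCre and 4062, 3019 and 2712 in Cpt1bcKO, again with sample 1 the highest in both groups and with overlap. Its log2 fold change was −0.38 (standard error 0.222, 95% interval −0.87 to 0.11, adjusted *P* = 0.482, limma). Sample 1 was female and the other samples male in both groups, as read from *Xist* and Y-linked genes. Sex therefore cannot be told apart from any other trait of sample 1, and the sex covariate stands for both. With sex as covariate, the unadjusted *P* value was 0.0106 for *Actn2* and 0.00376 for *Myoz2*, and the adjusted values (limma) were 0.105 and 0.0602. Without CtrlCre sample 1 the log2 fold change was −0.17 for *Actn2* and −0.14 for *Myoz2*, and without Cpt1bcKO sample 2 it was −0.22 for *Actn2*. Without Cpt1bcKO sample 1 it was −0.52 for *Actn2* and −0.55 for *Myoz2*.

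*Ldb3* (ENSMUSG00000021798, minus strand, chr14:34526699-34588681) encodes the PDZ-LIM protein ZASP or Cypher, which stabilizes the Z-disc during contraction. It had 2702, 2628 and 2676 normalized counts in CtrlCre and 2334, 2488 and 2327 in Cpt1bcKO, so that both groups were narrow and separate. The SD on the log2 scale was 0.0203 among the controls, compared with a median of 0.172 over 465 genes with a mean of at least 1000. The moderated test draws such a small variance towards that of genes of like abundance, and it gave a log2 fold change of −0.16 (standard error 0.125, 95% interval −0.44 to 0.11, adjusted *P* = 0.604, limma). With scaling to the sum without mitochondrial-encoded and rRNA genes it was −0.052. *Nebl* (ENSMUSG00000053702, minus strand, chr2:17343909-17731043), which encodes nebulette, a nebulin-like protein that binds actin at the cardiac Z-disc, had 3919, 3643 and 3254 normalized counts in CtrlCre and 2740, 2787 and 2926 in Cpt1bcKO. The groups did not overlap, and the mean level was 21.6% lower in Cpt1bcKO on the log scale. The log2 fold change was −0.35 (standard error 0.134, 95% interval −0.65 to −0.054), unadjusted *P* = 0.0250 and adjusted *P* = 0.273 (limma). The unadjusted value stayed below 0.05 in 15 of the 20 alternative fits. It was above 0.05 in 3 of the 6 fits that left out a sample. With scaling to the sum without mitochondrial-encoded and rRNA genes it was 0.0950 (limma), and the log2 fold change was −0.24. The ratio of *Nebl* to *Ldb3* counts overlapped between the groups, at 145, 139 and 122 per 100 in CtrlCre and 117, 112 and 126 in Cpt1bcKO.

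*Des* and *Cryab*, the intermediate filament protein desmin and the small heat shock protein that accompanies it, had fold changes close to 0. *Des* (ENSMUSG00000026208, plus strand, chr1:75360329-75368579) had 9118, 5956 and 6738 normalized counts in CtrlCre and 8794, 6221 and 6693 in Cpt1bcKO. Each Cpt1bcKO value lay beside the CtrlCre value of the same replicate number. Its log2 fold change of 0.0003 had a standard error of 0.198 and a 95% interval of −0.44 to 0.44 (adjusted *P* = 1, limma). *Cryab* (ENSMUSG00000032060, plus strand, chr9:50751325-50756636) had 1267, 913 and 1034 normalized counts in CtrlCre and 1161, 1166 and 889 in Cpt1bcKO, with a log2 fold change of 0.0029 (standard error 0.170, 95% interval −0.37 to 0.38, adjusted *P* = 0.996, limma). For each 100 counts of *Des* there were 13.9, 15.3 and 15.3 counts of *Cryab* in CtrlCre and 13.2, 18.7 and 13.3 in Cpt1bcKO, with overlap. Both genes are also active in smooth muscle cells.

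The exons of *Cryab* overlap those of *Hspb2*, a heat shock protein gene of muscle on the opposite strand, over 252 bases in the GENCODE vM21 annotation, which is 17.0% of the *Cryab* exon sequence. *Hspb2* had 63, 35 and 72 normalized counts in CtrlCre and 26, 21 and 22 in Cpt1bcKO (log2 fold change −1.21, standard error 0.313, unadjusted *P* = 0.00300, adjusted *P* = 0.102, limma), and its groups did not overlap. With sex as covariate its adjusted *P* value was 0.0452. For each 100 counts of *Cryab* there were 4.97, 3.83 and 6.96 counts of *Hspb2* in CtrlCre and 2.24, 1.80 and 2.47 in Cpt1bcKO. The authors excluded reads that overlapped several genes, and whether strand was used is not given in the sources used here, so reads of the shared stretch may be missing from both genes. *Des* shares 220 exon bases (5.86%) with the antisense gene *Gm15179*, which had 0, 0 and 0 normalized counts in CtrlCre and 1, 2 and 6 in Cpt1bcKO. *Myom1* shares 207 exon bases (1.98%) with *Myl12a* on the opposite strand, which had 1018, 689 and 656 compared with 1069, 747 and 591. That overlap is in the vM21 annotation only, since in the deposited coordinates *Myl12a* ends 16643 bases before *Myom1*.

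*Myom1* and *Mybpc3*, which act on the thick filament, had fold changes of opposite sign. *Myom1* (ENSMUSG00000024049, plus strand, chr17:71019521-71126856) encodes myomesin-1, the main cross-linker of myosin filaments in the M-band. It had 15027, 12684 and 13769 normalized counts in CtrlCre and 10626, 12628 and 11929 in Cpt1bcKO. The highest Cpt1bcKO value was just below the lowest CtrlCre value, and the log2 fold change was −0.24 (standard error 0.155, 95% interval −0.58 to 0.11, adjusted *P* = 0.541, limma), or −0.13 with scaling to the sum without mitochondrial-encoded and rRNA genes. *Mybpc3* (ENSMUSG00000002100, plus strand, chr2:91118144-91136516) encodes cardiac myosin-binding protein C, which sets the position of myosin heads in the C-zone of the thick filament. It had 14782, 13714 and 15671 normalized counts in CtrlCre and 15966, 18976 and 20791 in Cpt1bcKO. All Cpt1bcKO values were above all CtrlCre values, although Cpt1bcKO sample 1 was close to CtrlCre sample 3. The log2 fold change was 0.33 (standard error 0.166, 95% interval −0.039 to 0.70), unadjusted *P* = 0.0747 and adjusted *P* = 0.410 (limma). With scaling to the sum without mitochondrial-encoded and rRNA genes, the log2 fold change was 0.44 and the unadjusted *P* value 0.0191. With sex as covariate the unadjusted *P* value was 0.0231 and the adjusted one 0.161 (limma). For each 100 counts of *Myom1* there were 98.4, 108 and 114 counts of *Mybpc3* in CtrlCre and 150, 150 and 174 in Cpt1bcKO. This ratio separated the groups without overlap and is independent of the scaling, and it combines 2 genes whose fold changes have opposite signs. Per 100 counts of *Myoz2*, there were 254, 388 and 440 counts of *Mybpc3* in CtrlCre and 393, 629 and 767 in Cpt1bcKO, with overlap.

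**Figure D3:**
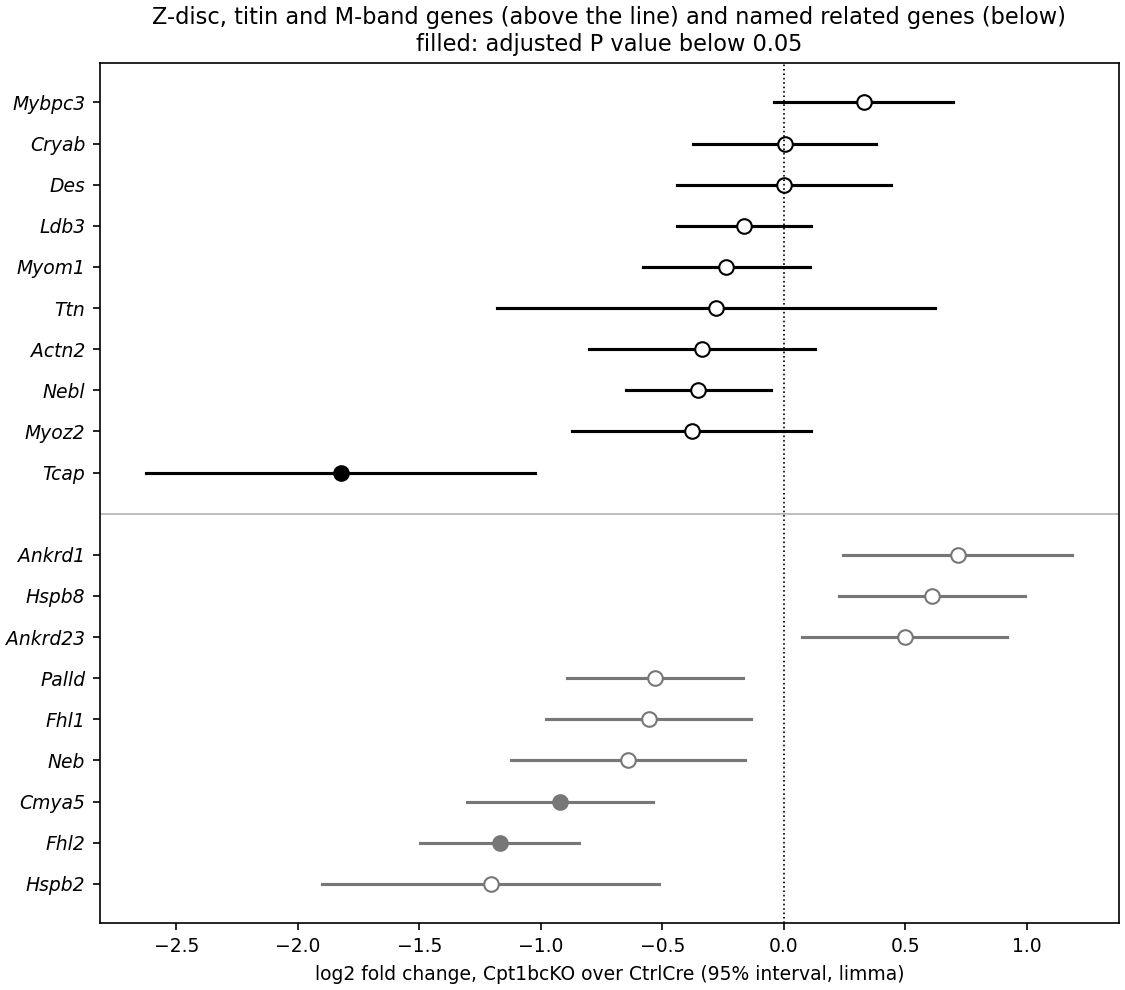
Log2 fold change of Cpt1bcKO over CtrlCre (points) with its 95% interval (lines) from limma for the 10 genes and for 9 related genes named in the text, with filled points where the adjusted P value is below 0.05. Tcap (−1.82) is the filled point among the 10 genes and Fhl2 (−1.17) and Cmya5 (−0.92) are those among the related genes, and the interval of Ttn is wide, from −1.18 to 0.62.

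In levels per kilobase of annotated exon, *Mybpc3* was the most abundant of the 10 genes in both groups and *Nebl* the least abundant. In CtrlCre the levels were 3536 ± 235 normalized counts per kb for *Mybpc3* (SD, n = 3), 2822 ± 758 for *Ttn*, 2540 ± 684 for *Tcap*, 2478 ± 535 for *Actn2* and 1937 ± 439 for *Des*. The ranges of mean ± SD of neighbours in this part of the order overlapped. *Myom1* followed with 1322 ± 112, *Myoz2* with 1258 ± 384, *Cryab* with 724 ± 122, *Ldb3* with 437 ± 6.1 and *Nebl* with 237 ± 22, and of these neighbours only *Myom1* and *Myoz2* had overlapping ranges. In Cpt1bcKO the levels per kb were 4463 ± 585 for *Mybpc3*, 2430 ± 988 for *Ttn*, 1967 ± 468 for *Actn2*, 1928 ± 365 for *Des*, 1121 ± 97 for *Myom1* and 954 ± 207 for *Myoz2*. *Tcap* was at 793 ± 510 normalized counts per kb, within the SDs of *Myoz2* and of *Cryab* (725 ± 107), and it stood at place 7 of 10 instead of place 3. *Ldb3* was at 390 ± 15 and *Nebl* at 185 ± 6.3. With the longest annotated transcript as length, *Tcap* moved from place 4 to place 8.

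**Figure D4:**
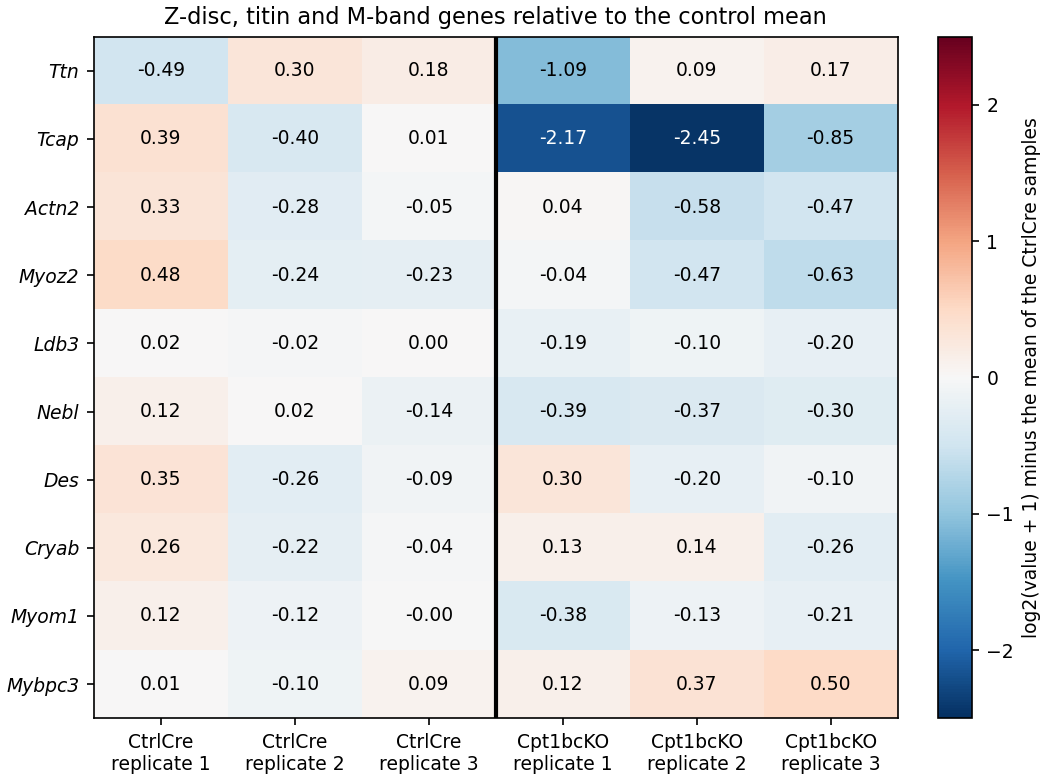
Difference of log2(value + 1) from the mean of the CtrlCre samples for each of the 10 genes (rows) in each sample (columns, with controls to the left of the black line), where blue is lower and red is higher. Tcap is low in all 3 Cpt1bcKO samples, Ttn is low in sample 1 of both groups, and Mybpc3 is the row with positive values in all 3 Cpt1bcKO samples.

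Sample 1, the female sample of each group, stood apart in several of these genes. It had the lowest *Ttn* value and the highest *Actn2*, *Myoz2* and *Des* values in both groups. Deviations from the group means of the 6 samples had a Pearson's *r* of 0.99 between *Actn2* and *Des*, 0.91 between *Actn2* and *Myoz2* and −0.95 between *Ttn* and *Actn2*, given here as a description of samples that share library and size factor. A similar shift was seen in genes sorted by exon length. In 1032 genes of 2 to 4 kb with a mean of at least 100, the range in which *Des*, *Actn2* and *Myoz2* fall, the median log2 deviation from the group mean was 0.15 in CtrlCre sample 1 and 0.16 in Cpt1bcKO sample 1. In 840 genes of 10 kb or more, among them *Ttn* with 116.825 kb, it was −0.070 and −0.12. The share of this shift in each gene was not tested. With values corrected for exon length, a step added after the data had been seen, the log2 fold change of *Ttn* was −0.33 with a standard error of 0.255 and that of *Tcap* was −1.80 (adjusted *P* = 0.0305, limma).

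The mean of the 10 genes on the log2 scale, relative to the CtrlCre mean, was 0.16, −0.13 and −0.026 in CtrlCre samples 1, 2 and 3 and −0.37, −0.37 and −0.23 in Cpt1bcKO samples 1, 2 and 3. *Tcap* alone supplied −0.18 of the difference of −0.32 between the groups. The mean taken over the other 9 genes alone differed by −0.16, a value with another denominator that does not add to the part of *Tcap*. Over the 6 samples, which include the difference between the groups, the genes with the most similar pattern among 6743 candidates were *Slc4a1ap* (Pearson's *r* 0.998), *Tec* (0.990), *Xrcc5* (0.988), *Myh6* (0.985) and *Stk11* (0.983). Values this high can come from picking the highest of 6743 correlations over 6 samples, so the ranking is a description only. *Myh6*, which encodes the α-myosin heavy chain of adult mouse CMs, had 149899, 104814 and 110093 normalized counts in CtrlCre and 83563, 82872 and 93434 in Cpt1bcKO.

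The surroundings of these genes in the sarcomere were described with a list of 55 further genes of the Z-disc, titin, the M-band and the thick filament. Of these, 51 were listed in the table and 49 were tested. Of the 49, 11 were lower and 5 higher at an unadjusted *P* value below 0.05 (22.4% lower, compared with 7.22% of all genes tested and 21.1% of those with a mean of at least 1000, and 6.66% higher among all), and 2 were lower and none higher after adjustment (limma, 1.57% of all genes called). Every Cpt1bcKO value was below every CtrlCre value in 10 of them (20.4%, compared with 9.6% of all genes tested) and above in 4 (8.16%, compared with 9.13%). This list, too, was chosen with earlier results known. It was not matched to the genes with a mean of at least 1000. Some of its genes, such as *Neb* and *Fhl1*, were below that mean. The median log2 fold change of the 49 genes was −0.11. Without CtrlCre sample 1, CtrlCre sample 3 or Cpt1bcKO sample 2, 7 were lower, and 2 to 3 were higher at the same threshold. Of all genes tested, 5.06%, 5.44% and 4.88% were lower and 5.63%, 5.82% and 3.94% higher in these fits. The 2 genes called after adjustment became 1 without CtrlCre sample 1, 2 or 3 or Cpt1bcKO sample 2, and 5 without Cpt1bcKO sample 1, when 2.74% of all genes tested were called. With scaling to the sum without mitochondrial-encoded and rRNA genes, 6 were lower and 8 higher, compared with 4.44% and 10.7% of all genes tested. The 31 genes of the Z-disc and its linkers that were tested included 9 of the lower genes and 1 of the higher ones, with a median of −0.15. The 17 tested genes of titin and the M-band included 2 of the lower and 4 of the higher ones, with a median of −0.0040. Among thick filament binding proteins 1 gene, *Mybpc2*, was tested, and it was neither lower nor higher at this threshold. The difference between these lists was not tested.

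Both related genes that fell after adjustment encode partners of the genes described above. *Fhl2*, a LIM domain protein that binds titin, had 3681, 3189 and 2895 normalized counts in CtrlCre and 1543, 1284 and 1504 in Cpt1bcKO. The groups were far apart, and the log2 fold change was −1.17 (standard error 0.147, 95% interval −1.50 to −0.84, adjusted *P* = 0.00391, limma). The call held in all 6 fits that left out a sample and was lost with a single prior variance for all genes (adjusted *P* = 0.0698). *Cmya5*, which encodes myospryn, a large protein that binds α-actinin and desmin near the Z-disc, had 7543, 7313 and 7386 in CtrlCre and 3660, 3261 and 5008 in Cpt1bcKO. Its log2 fold change was −0.92 (standard error 0.173, 95% interval −1.31 to −0.54, adjusted *P* = 0.0268, limma), and Cpt1bcKO sample 3 was again the one nearest to the controls. The call for *Cmya5* was lost without CtrlCre sample 1 (adjusted *P* = 0.0791), CtrlCre sample 2 (0.105), CtrlCre sample 3 (0.112) or Cpt1bcKO sample 2 (0.176), and with a single prior variance (0.144).

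Among the other related genes, the lowest fold changes with a mean of at least 50 and an unadjusted *P* value below 0.05 were those of *Neb*, *Fhl1* and *Palld*, and the highest those of *Ankrd1*, *Hspb8* and *Ankrd23*, none of which passed the adjusted test. With sex as covariate, *Ankrd1* (adjusted *P* = 0.0139, limma) and *Hspb8* (0.0448) did pass, in a fit that called 5.05% of all genes tested. *Neb*, the long nebulin ruler of skeletal muscle, had 149, 156 and 110 normalized counts in CtrlCre and 75, 108 and 82 in Cpt1bcKO (log2 fold change −0.64, adjusted *P* = 0.209, limma). *Fhl1*, a LIM protein that also binds titin, had 313, 377 and 334 compared with 301, 210 and 195 (−0.56, adjusted *P* = 0.214, limma). *Palld*, which encodes the α-actinin-binding palladin, had 1495, 1321 and 1239 compared with 841, 835 and 1156 (−0.53, adjusted *P* = 0.173, limma). In the other direction, *Ankrd1*, a stress-responsive ankyrin repeat protein that binds the I-band part of titin, had 7386, 5526 and 4250 in CtrlCre and 10634, 9437 and 7654 in Cpt1bcKO (0.72, adjusted *P* = 0.159, limma). *Hspb8*, a small heat shock protein that works with BAG3 in turnover at the Z-disc, had 1703, 1550 and 1128 compared with 1981, 2303 and 2319 (0.61, adjusted *P* = 0.136, limma). *Ankrd23*, a relative of *Ankrd1*, had 132, 131 and 150 compared with 198, 236 and 157 (0.50, adjusted *P* = 0.274, limma). The groups did not overlap in any of these 6 genes.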

How the data were processed

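RNA-seq values of 3 CtrlCre and 3 Cpt1bcKO samples were used. Per the submitters' processing notes and the study's methods, the authors trimmed reads (Trimmomatic 0.36), aligned them to mm10 (STAR 2.5.4b), counted them on exons (featureCounts 1.6.0) and scaled each sample with a size factor. The resulting signal, deposited by the authors as whole numbers, is called normalized counts. Strand use is not given in the sources used here. The authors' mean, fold change and P value columns were not used.

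Values were tested as log2(value + 1) with limma 3.58.1 in R 4.3.3 (lmFit and eBayes with trend, no covariates), over genes that reached 10 in 3 or more samples, with Benjamini–Hochberg adjustment over all 11364 genes. A count model could not be used, since a single read is worth 0.682 to 1.294 in the 4 samples in which it could be resolved, and values of about 10 are imprecise. Per the study, samples come from separate mice. An exact permutation test of 3 against 3 cannot go below 0.1. Exon lengths come from GENCODE vM21 (16427 of 16448 genes matched). Coordinates are those of the deposited table. The test was checked on simulated data. Figures were made with matplotlib 3.10.9.

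Genes and lists were chosen with earlier results of these data known. Named were the 10 genes, genes overlapping them, related genes with an adjusted P value below 0.05, and the 3 further related genes with the largest fold change in each direction among those with an unadjusted P value below 0.05 and a mean of at least 50. Alternatives were other scalings, filters, pseudocounts (0.5 and 5), prior variances, a replicate block, sex as covariate, each sample left out, and corrections for GC content and exon length.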

Additional observations from a re-analysis of the deposited data

How the results depend on the processing

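Results are given for 20 alternative fits. *Tcap* kept its direction in all of them, as did *Actn2*, *Myoz2*, *Ldb3*, *Nebl*, *Myom1* and *Mybpc3*. The fold change of *Ttn* lay between −0.52 and 0.13 with a sample left out, that of *Des* between −0.15 and 0.18 and that of *Cryab* between −0.11 and 0.13. With scaling by the median of ratios, *Des* was at −0.0100 and *Cryab* at −0.0073, and with the GC correction they were at −0.058 and −0.029. None of these passed a test, and the cause was not tested.

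Among the 10 genes (2 lower, 0 higher, 1 called after adjustment), scaling without mitochondrial-encoded and rRNA genes gave 1 lower and 1 higher, with 3 instead of 5 separated. The upper quartile gave 1 higher, a single prior variance gave 1 lower and 0 called, and a robust prior gave 0 called. Of all genes tested, 8.03% were higher with the upper quartile. A single prior variance had 6.06% of all genes lower, 6.91% higher and 0.361% called. A robust prior had 1.61% called, compared with 1.57% in the main fit. Sex as covariate, or the length correction with the replicate block, gave 4 lower and 1 higher. In these fits 11.3% and 11.5% of all genes tested were lower, and 9.57% and 9.35% higher. With a sample left out, 1 to 4 were lower, 0 to 1 higher and 0 to 1 called. Among all genes tested, 4.88% to 10.9% were lower, 3.94% to 8.95% higher and 0.363% to 2.74% called with a sample left out.

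Among the related genes (11 lower, 5 higher, 2 called), scaling without mitochondrial-encoded and rRNA genes gave 6 lower and 8 higher, and a single prior variance gave 7 lower, 3 higher and 0 called. The GC correction gave 3 higher, sex as covariate 6 called, and the length correction with the replicate block 8 called. Of all genes tested, 6.58% were higher with the GC correction. Sex as covariate called 5.05% of all genes tested and the length correction with the block 5.29%, compared with 1.57% in the main fit. With a sample left out, 7 to 11 were lower, 2 to 6 higher and 1 to 5 called. The cause of these shifts was not tested, except that fits with fewer samples have less data.

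Deviations of same-numbered samples correlated at 0.376, 0.255 and 0.0684 across genes for numbers 1, 2 and 3. Those of differently numbered samples correlated at −0.329 to 0.147. The same number gave the highest value for samples 1 and 2, but CtrlCre sample 3 correlated more with Cpt1bcKO sample 2 (0.119). The main fit did not pair the samples, and whether the numbers stand for a shared batch was not tested. The replicate block gave 4 lower and 1 higher of the 10 genes, *Tcap* at an adjusted *P* of 0.00293 (limma), and 6 related genes called. With the block, 11.3% of all genes tested were lower, 9.44% higher and 5.31% called. The main fit had 7.22%, 6.66% and 1.57%. The corrections for GC content and length, and the latter with the block, were added after seeing the data. Values rounded to whole numbers limit genes near 10.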
